A study of Mus musculus with 13 samples.

Results

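The regions described here are dense blocks of CpG sites in mouse liver whose methylation differed between 2 diets. They were chosen by their position and by the authors' diet contrast: sites that the authors listed as different were sorted along each chromosome, sites at most 1000 bp apart were joined, and groups of 5 or more sites were kept. This gave 170 blocks with 1049 of the 23654 listed sites on chromosomes 1 to 19. The whole table holds 23904 sites, and the 250 on other chromosome names were set aside. The remaining sites formed 18029 groups of 1 to 4 sites.

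The study examined liver DNA of 13 mice with targeted bisulfite sequencing, in which conversion turns unmethylated cytosines into bases read as thymine and leaves methylated ones as cytosine. Of these mice, 7 were fed the low fat/low sucrose diet (below, the low diet) and 6 the high fat/high sucrose diet (the high diet), and the question is where methylation differs between the diets. The sources used here do not give strain, sex, age or length of feeding, and a prefix in the sample titles (G1 or G2), present in both diets, is not explained in the labels. Each listed site carries the average level of each diet in percent and a difference in percentage points, high diet minus low diet, and had already passed the authors' limits, with every q under 0.01 and every absolute difference over 5 points.

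In mammals the cytosine of a CpG pair can carry a methyl group, and neighbouring CpGs often share its state. CpG-rich stretches called islands, many of them at gene starts, are usually unmethylated, their flanks (shores) are more variable, and most CpGs elsewhere are methylated. Methylation of a promoter island usually goes with silencing, whereas in liver, as in other tissues, active enhancers are typically depleted of methylation.

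Because the authors' contrast chose the sites, levels, differences and directions in the blocks are descriptions and were not tested. A block value is the mean over its sites of the authors' deposited averages or differences, and its SD is the spread over sites, not over mice. Values per mouse and read counts were not analysed here, so the depth behind each average is unknown and no error over mice can be given. The sites of a block lie close together, so they are not independent measurements. The table is of methylation only, so the liver label could not be checked against marker expression. In bulk liver, a different mix of cells and a different level within cells cannot be told apart.

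The 4 promoters that follow show where such sites sit at a gene start. A total of 11 blocks had at least 2 listed sites within the 250 bases before to 50 bases after a RefSeq start. The 4 shown are among those in which every such site fell on a CG of the RefSeq promoter (build GRCm38.p6). They were chosen after their values were seen, and whether another of the 11 meets this rule is not reported here. Each sequence is written 5′ to 3′ on the gene's strand, with the CpG pairs at the listed sites in capitals. Vps45 is chr3:96058406-96058705 on the minus strand. Atp6v0e2 is chr6:48537319-48537618 on the plus strand. Arhgap33os, the current name of the gene listed as Gm1082, is chr7:30514872-30515171 on the plus strand. Zfp819 is chr7:43606919-43607218 on the plus strand.
Vps45: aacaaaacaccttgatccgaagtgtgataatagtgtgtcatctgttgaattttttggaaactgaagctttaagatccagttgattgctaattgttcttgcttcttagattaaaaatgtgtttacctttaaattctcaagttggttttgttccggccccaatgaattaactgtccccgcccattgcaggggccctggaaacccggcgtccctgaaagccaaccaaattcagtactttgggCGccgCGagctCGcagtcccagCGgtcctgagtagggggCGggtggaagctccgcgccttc
Atp6v0e2: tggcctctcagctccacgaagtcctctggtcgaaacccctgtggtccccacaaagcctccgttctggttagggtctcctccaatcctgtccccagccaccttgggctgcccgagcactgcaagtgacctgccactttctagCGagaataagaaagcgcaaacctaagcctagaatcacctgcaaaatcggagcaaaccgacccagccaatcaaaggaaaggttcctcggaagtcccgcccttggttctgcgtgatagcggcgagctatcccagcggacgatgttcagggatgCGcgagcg
Arhgap33os: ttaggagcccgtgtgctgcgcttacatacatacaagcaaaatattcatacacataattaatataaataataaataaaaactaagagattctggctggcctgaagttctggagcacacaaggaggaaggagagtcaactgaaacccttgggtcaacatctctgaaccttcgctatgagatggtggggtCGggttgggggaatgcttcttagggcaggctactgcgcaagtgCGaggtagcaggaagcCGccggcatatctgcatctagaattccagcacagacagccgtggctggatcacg
Zfp819: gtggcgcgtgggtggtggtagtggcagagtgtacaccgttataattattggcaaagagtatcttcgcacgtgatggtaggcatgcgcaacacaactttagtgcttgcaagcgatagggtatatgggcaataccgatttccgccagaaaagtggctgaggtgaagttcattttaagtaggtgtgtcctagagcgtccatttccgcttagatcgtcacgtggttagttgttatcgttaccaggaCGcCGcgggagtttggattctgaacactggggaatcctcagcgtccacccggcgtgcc

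The Vps45 promoter held all 5 sites of its block, within 40 bp around the start. Vps45 encodes a protein of vesicle fusion. In the authors' deposited table the 5 sites averaged 0%, 0%, 0.714%, 0% and 0% on the low diet and 5.35%, 8.09%, 7.90%, 4.90% and 5.95% on the high diet. It was the block with the lowest mean on the low diet of all 170, 0.143%, and it reached 6.44%. The window has 13 CpG pairs, and 37.9% of the 32851 RefSeq promoters of the same 300 bases have as many or more (median 7).

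Arhgap33os, an opposite-strand transcript, had 3 of its 6 block sites in the printed window, at intermediate levels. They averaged 26.5%, 30.5% and 36.7% on the low diet and 49.1%, 53.0% and 60.6% on the high diet in the authors' deposited table. The window has 10 CpG pairs, which 43.5% of promoters match or exceed. In the Zfp819 promoter, of a zinc finger gene, 2 of 5 block sites averaged 0% and 0.510% on the low diet and 9.05% and 11.5% on the high diet in the authors' deposited table, in a window of 20 CpG pairs (26.5% of promoters have as many). Atp6v0e2, a subunit gene of the vacuolar proton pump, had 2 of 5 sites there, which averaged 27.7% and 5.93% on the low diet and 37.7% and 15.1% on the high diet in the authors' deposited table. That window has 18 CpG pairs, a count that 29.7% of promoters reach. The listed sites in these windows thus ranged from 0 to 36.7% on the low diet and were higher on the high diet in each; the other CpGs of the windows were not read.

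Most dense blocks were higher on the high diet throughout. Every site was higher in 115 blocks (67.6%), every site was lower in 31 (18.2%), and 24 (14.1%) held both directions. For comparison, 57.7% of all listed sites on chromosomes 1 to 19 were higher and 42.3% were lower, and of the 3443 groups of 2 to 4 sites 52.7% were higher at every site and 30.3% lower at every site. Counted by site, 813 of the 1049 block sites (77.5%) were higher, against 61.8% of sites in groups of 2 to 4 and 54.1% of sites standing alone. Sites in blocks also started lower: their median level on the low diet was 27.4%, against 38.6% in groups of 2 to 4 and 55.5% for single sites. The size of the difference was close in the 3 classes, with a median absolute value of 12.3 points in blocks, 11.9 in groups of 2 to 4 and 11.5 at single sites. A q under 0.001 was listed for 40.5%, 27.5% and 20.2% of their sites.

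Over the 170 blocks the median mean level was 29.9% on the low diet and 42.3% on the high diet, and the mean difference ran from -19.3 to 30.1 points with a median of 11.0. The median SD of the difference over the sites of a block was 2.92 points: 2.77 in higher blocks, 1.99 in lower ones and 12.1 in those with both directions. In 40 blocks (31 higher, 9 lower) the range of site averages of one diet lay wholly above that of the other, which is 23.5% of them. The share was 29.3% of groups of exactly 4 sites and 49.3% of groups of 2 to 4, and a range widens with the number of sites. A mean rise of 15 points or more was seen in 30 blocks and a mean fall of 15 points or more in 9.

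The direction of a block went with its level. The 115 higher blocks had a median level of 24.6% on the low diet (range 0.143 to 67.9%) and 36.7% on the high diet, with a median rise of 12.1 points (6.49 to 30.1). The 31 lower blocks stood at a median of 71.1% on the low diet (17.9 to 94.9%) and 58.7% on the high diet, with a median difference of -12.0 points (-19.3 to -7.15). Of the 48 blocks with a level of 0 to 20% on the low diet, 44 were higher and 1 was lower, and of the 65 at 20 to 40%, 52 were higher and 1 was lower. Of the 22 at 40 to 60%, 13 were higher and 2 lower. At 60 to 80% the split was 6 higher and 22 lower of 29, and at 80 to 100% it was 0 higher and 5 lower of 6. A level near 0% leaves room for a listed rise only, and one near 100% for a listed fall only. The low diet level also enters the difference, so part of this link is built in at any level. The link was not tested, and the same split was not made for groups outside the blocks.

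**Figure D1:**
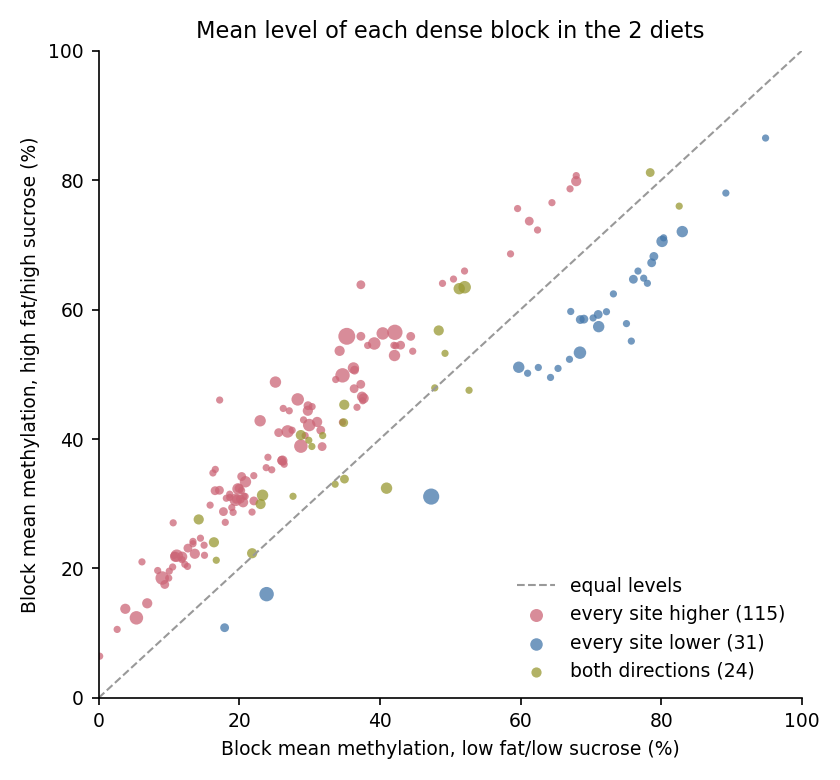
Mean methylation of each dense block on the low diet (x axis, %) and high diet (y axis, %), 1 point per block, with larger points for more sites and the dashed line at equal levels. The 115 blocks with every site higher lie above the line and mostly at low levels, and the 31 with every site lower lie below it, 27 of them at 60% or over on the low diet.

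Blocks were short and most sat just at the minimum size. Of the 170, 87 had 5 sites, 33 had 6, 20 had 7, 13 had 8 and 9 had 9, and 8 had 10 to 14. The median span was 401 bp (35 to 2765), with 43 blocks within 200 bp and 39 over 1000 bp. At the threshold, the 87 blocks of exactly 5 sites had medians of 29.4% and 41.4% in the 2 diets, with 60 higher, 17 lower and 10 mixed. The 225 groups of exactly 4 sites, just outside the rule, had medians of 32.2% and 42.2%, with 130 higher, 61 lower and 34 mixed. The widest gap inside a block was 994 bp, and 8 blocks held a gap of over 900 bp. Chromosome 11 had the most blocks (17), followed by chromosome 10 (14) and chromosome 9 (13), and chromosome 4 had the fewest (2).

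Neighbouring sites in a block mostly shared a direction, and did so less often over longer gaps. Of 533 neighbouring pairs within 50 bp, 531 (99.6%) had the same sign, of 174 pairs over 50 and up to 200 bp apart 96.6%, and of 172 pairs over 200 and up to 1000 bp apart 84.9%. In groups of 2 to 4 sites the shares were 98.2%, 86.0% and 70.5%. The listed differences of neighbours in blocks differed by a median of 1.77, 2.43 and 4.37 points in the 3 distance classes. Beyond the blocks, the nearest surroundings were sparse: 18 listed sites lay over 1000 and up to 2000 bp from a block, and 11 of them (61.1%) had the block's majority direction. From there to 5000 bp the share was 47 of 64 (73.4%), from 5000 to 10000 bp 57 of 86 (66.3%), and from 10000 to 50000 bp 262 of 424 (61.8%). Only sites outside blocks were counted, and blocks with as many sites higher as lower were left out. Over all listed sites outside blocks, 56.8% were higher, which is a share of rises and not of agreement with a block's direction. A matching share was not computed.

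The annotation in the authors' deposited table placed block sites in islands, promoters and exons more often than the other listed sites. Islands held 13.8% of block sites, against 7.83% of sites in groups of 2 to 4 and 6.21% of single sites. For shores the shares were 26.1%, 22.1% and 19.2%, for promoters 22.9%, 17.6% and 16.9%, and for exons 22.8%, 14.9% and 11.8%. Introns took 49.95%, 49.9% and 48.8%. Near the size limit the contrast was smaller: islands held 8.51% of sites in blocks of exactly 5 and 7.67% in groups of exactly 4. Promoters held 20.2% and 16.7% of these sites, and exons 18.4% and 15.8%. In blocks of 8 or more sites the island share was 25.4%, so the island share over all blocks leaned on the larger ones. A site could carry several flags, and CpG density was not computed here, so these shares are not tests of enrichment. Most block sites, 60.1%, still lay outside islands and shores, and 28.1% had no gene feature. The median distance to the listed start was 3741 bp in blocks and 9126 bp outside them.

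**Figure D2:**
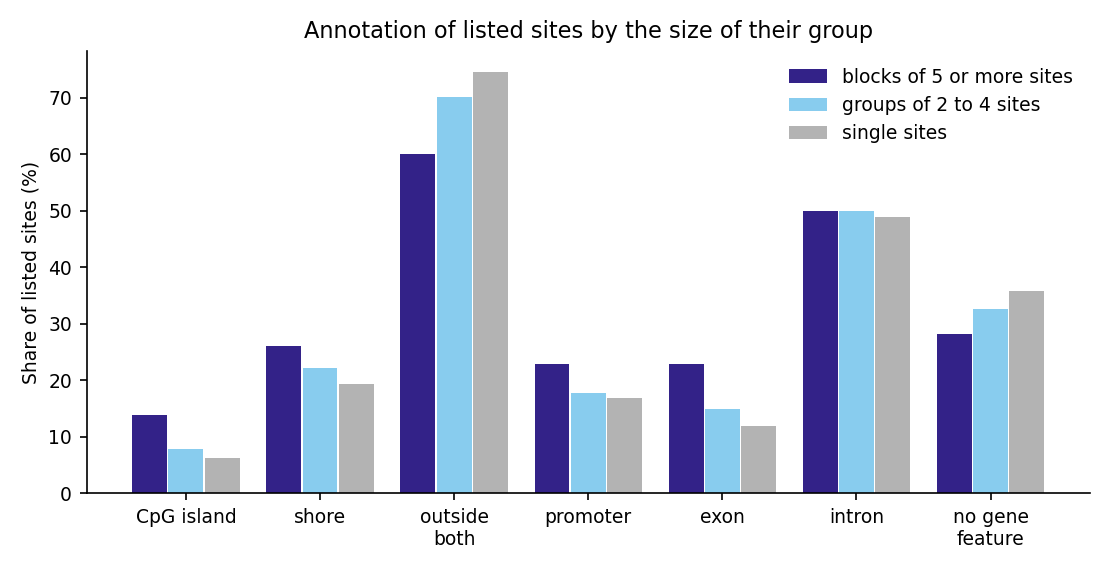
Share of listed sites (y axis, %) with each annotation of the authors' deposited table (x axis), for sites in dense blocks, in groups of 2 to 4 and standing alone. Island, promoter and exon bars are tallest for the blocks (13.8%, 22.9% and 22.8%), and intron bars are nearly level at 48.8 to 49.95%.

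A symbol was listed for 144 blocks, 142 different ones. It was read as the gene with the nearest listed start, so the block need not lie in that gene. In 65 blocks every site was over 10000 bp from the start, and 54 blocks lay wholly upstream of it. In 18 of those 54 every site still carried an intron or exon flag, which places them in another transcript. Negative distances are upstream of the start. Block positions below follow the table and its build, mm9.

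The block with the largest mean rise was at Erp27, which encodes a protein of the endoplasmic reticulum related to the disulfide isomerases. It lies on chromosome 6 at 136865996 to 136866039, in an intron, 4663 to 4706 bp after the start, and its 5 sites span 44 bp. In the authors' deposited table the sites averaged 17.5%, 15.2%, 17.8%, 18.6% and 17.1% on the low diet and 46.9%, 46.6%, 47.2%, 43.1% and 46.3% on the high diet. The 2 diets did not overlap over these sites, and the mean difference was 30.1 ± 2.83 points (SD over sites).

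Mst1r, the gene of the receptor tyrosine kinase RON, had the next largest rise, at its promoter. Its 6 sites lie on chromosome 9 at 107809530 to 107809583, 294 to 347 bp after the start, and all carry promoter and exon flags. Site averages ran from 21.8 to 45.2% on the low diet and from 58.0 to 67.9% on the high diet, again without overlap. Single-site differences in the authors' deposited table ran from 20.7 to 39.7 points, with the largest at 107809572, and the mean was 26.9 ± 6.87. The smallest listed q in this block was 2.46e-10.

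The other large rises began at low or intermediate levels. A block with the symbol Mrpl15, a mitochondrial ribosomal protein gene, lay in a CpG island on chromosome 1 at 4679308 to 4679451, at least 96357 bp from that start, and rose from 23.0% to 42.8% (8 of 8 sites, mean difference 21.0). An intronic block at Atxn1, the ataxin 1 gene, on chromosome 13 at 46012737 to 46012802, went from 25.1% to 48.8%, with 8 sites at 23.7 to 27.4% in one diet and 44.0 to 52.7% in the other. The Arhgap33os block, on chromosome 7 at 31300078 to 31301011, rose from 37.3% to 55.9% over 6 sites.

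Kmt2b, listed as Wbp7, encodes a histone methyltransferase acting on H3K4. It gave its name to a shore block on chromosome 7 at 31375325 to 31375671. This block lay upstream of the listed start, at -1927 to -1581 bp, yet carried an intron flag at all 5 sites, which places it in another transcript. It rose from 16.6% to 35.3%, with 5 of 5 sites higher. The block named for Adm, the gene of the vasodilator peptide adrenomedullin, lay 20882 to 21090 bp from the start and rose from 16.3% to 34.8%. Mthfd1l, a mitochondrial enzyme of folate metabolism, had an intronic block at least 138175 bp after its listed start that rose from 33.7% to 49.2%. A shore block with no symbol, on chromosome 5 at 120753782 to 120754308, rose from 34.3% to 53.6% at 7 of 7 sites.

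**Figure D3:**
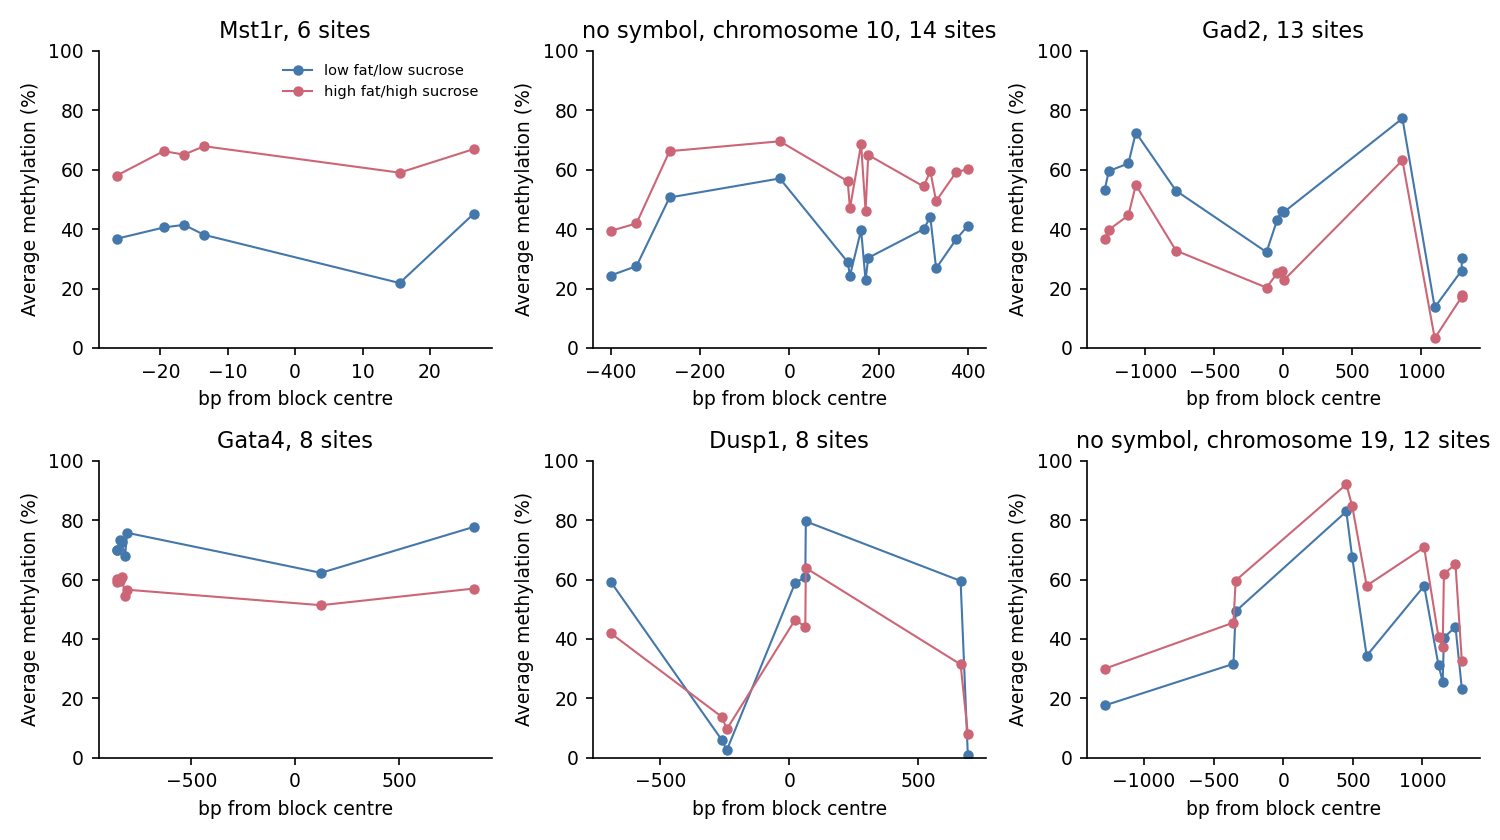
Average methylation (y axis, %) of every site in 6 blocks against its distance from the block centre (x axis, bp), low diet in blue and high diet in red, with lines joining neighbouring sites. The high diet lies above the low diet at every site of the Mst1r and both unnamed blocks, and below it in the Gad2 and Gata4 blocks. The distance between the profiles varies along the blocks, from 21.2 to 37.1 points in Mst1r. In the Dusp1 block the 5 sites at higher levels fell and the 3 sites at low levels rose.

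The block with the most sites had no symbol. It lies on chromosome 10 at 116855280 to 116856080, outside islands and genes, and the nearest start named in the table is that of Cpsf6, 41652 bp from the block centre. All 14 sites were higher, from 22.8 to 57.0% on the low diet and from 39.4 to 69.5% on the high diet. The means were 35.3% and 55.9%, and the smallest single-site difference in the authors' deposited table was 11.8 points.

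A block of 12 sites with no symbol, on chromosome 19 at 44468900 to 44471466, lay with its centre 12015 bp downstream of the start of Scd1, the stearoyl-CoA desaturase gene. Promoter and exon flags were set at 11 of its 12 sites. The listed distances refer to the start of a transcript without a symbol, yet exon flags also stand upstream of that start, from -989 bp. Whether the block lies within Scd1 was not checked. Levels were uneven along its 2567 bp: on the low diet the sites ran from 17.6 to 82.9%, and on the high diet from 29.97 to 92.0%. Every site was nonetheless higher on the high diet, by 8.09 to 22.8 points.

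Other blocks of many sites were higher too. Neurl3, a ubiquitin ligase gene, had 11 sites over 362 bp on chromosome 1 at 36326254 to 36326615, of which 10 were in an island and 10 in an exon, and rose from 34.7% to 49.8%. Rhof, a small GTPase gene, had 10 sites in an island and its shore upstream of the start, at lower levels (9.04% and 18.5%). Poli, the DNA polymerase iota gene, had 9 sites at -15120 to -14935 bp from the start that rose from 39.2% to 54.8%. A 10-site block far from any named start, on chromosome 13 at 47789117 to 47789447, rose from 28.8% to 38.9%.

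A lower block with no symbol lay in an island. It had 11 sites on chromosome 17 at 39980507 to 39982190, all flagged as island and 7 of them as promoter. Its averages ran from 19.2 to 33.1% on the low diet and from 12.1 to 20.5% on the high diet, with means of 23.9% and 16.0%. Together with a 6-site block on chromosome 14 at 7258995 to 7259439 (17.9% and 10.8%), it was 1 of 2 lower blocks with a level under 40% on the low diet. Both lack a symbol, and reads from near-identical copies could be placed on them.

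The largest fall was at Cotl1, the gene of an actin-binding protein related to coactosin. Its 5 intronic sites on chromosome 8 at 122349867 to 122350343 averaged 80.1%, 78.3%, 78.2%, 77.9% and 64.3% on the low diet in the authors' deposited table. In high diet the same sites averaged 58.8%, 51.7%, 50.5%, 59.1% and 55.6%. The ranges did not overlap, and the mean difference was -19.3 ± 3.82 points.

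Of the 31 lower blocks, 27 stood at 60% or over on the low diet and 21 carried an intron flag at every site. Gad2, a gene of GABA synthesis, gave its name to the lower block with most sites: 13 of 13 were lower on chromosome 2 at 22442932 to 22445521, with means of 47.3% and 31.1%. They carry an intron flag yet lie at -34915 to -32326 bp, upstream of the Gad2 start. Hdac7, a histone deacetylase gene, fell from 65.3% to 50.9% over 5 intronic sites, 941 to 2905 bp after the start. Ncoa3, a nuclear receptor coactivator gene, had 9 of 9 sites lower at -37748 to -37490 bp from its start, from 68.5% to 53.3%.

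The remaining large falls lay between -17.2 and -14.4 points. Fam220a fell from 75.1% to 57.8%, with 5 sites at 72.8 to 76.7% on the low diet and 52.8 to 60.7% on the high diet. Sec14l1 (77.5% and 64.9%) and Lrrc1 (78.0% and 64.1%) fell in introns, and Ccdc24 (64.3% and 49.5%) in an exon at an island. Slc16a5, a gene of the monocarboxylate transporter family, fell at its promoter: its 5 sites, at -193 to 124 bp from the start, went from 67.0% to 52.3%.

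Blocks at promoters varied in level and mostly rose. At least 1 site carried the promoter flag in 49 blocks, and in 26 blocks every site did, of which 19 were higher, 6 lower and 1 mixed. Besides Mst1r and Slc16a5, Dnah6 (listed as Dnahc6), an axonemal dynein gene, had 9 promoter sites on chromosome 6 at 73171990 to 73172313 that rose from 28.3% to 46.1%. The ranges, 21.0 to 33.2% and 38.1 to 53.3%, did not overlap. Mpst, a gene of an enzyme that makes hydrogen sulfide, had 8 promoter sites that rose from 19.8% to 32.3%, and the site deepest in the gene rose most, by 24.8 points.

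Gpld1 encodes a phospholipase that releases proteins from their membrane anchor and is secreted by liver. Its 7 promoter sites, 76 to 435 bp after the start, rose from 13.7% to 22.3%. AI429214 rose from 6.91% to 14.6% over 7 promoter sites around its start. Rexo2, an oligoribonuclease gene, rose from 19.5% to 30.6% with 8 of 9 sites in the promoter and all 9 in a shore. Dynlt1a, a dynein light chain gene, rose from 36.2% to 50.98% at 8 promoter sites. In the island promoter of 6820431F20Rik 10 of 10 sites were higher at low levels (5.37% and 12.4%). Dynlt1a and 6820431F20Rik may have near-identical copies, and the placement of their reads was not tested.

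Blocks were then counted at genes of 16 lists chosen with earlier results of these data known. Over all genes, 142 of the 8940 with a listed site (1.59%) had a block of their name, and 4.43% of all listed sites lay in blocks. In the fatty acid and triglyceride synthesis list, 26 of 30 genes had a listed site, and Acss2 and Elovl6 had a block (14 of 107 sites). The unnamed block downstream of the Scd1 start, given above, carries no symbol and is not counted there, although Scd1 is on the list. Acss2, the gene of cytosolic acetyl-CoA synthetase, had 5 intronic shore sites 1429 to 1599 bp after the start, on chromosome 2 at 155345206 to 155345376. They averaged 53.5%, 60.3%, 34.96%, 76.4% and 72.8% on the low diet and 76.9%, 74.9%, 51.7%, 90.0% and 84.6% on the high diet in the authors' deposited table. The site levels differed widely and overlapped between diets, yet each of the 5 sites was higher, by 12.4 to 24.5 points.

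Elovl6 encodes the elongase that extends palmitate. It had 9 intronic shore sites on chromosome 3 at 129237929 to 129239110, with means of 52.1% and 63.5%. The 8 sites that lie together were higher, from 45.5 to 79.4% on the low diet to 61.8 to 85.9% on the high diet. The ninth, 961 bp beyond them at 129239110, was lower, with averages of 7.73% and 1.15% listed in the authors' deposited table.

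Klb encodes beta-klotho, the co-receptor through which endocrine fibroblast growth factors act on liver. It had the 1 block of the 41-gene cholesterol, lipoprotein and bile acid list, in which 29 genes had a listed site. Its 8 intronic sites on chromosome 5 at 65740781 to 65740909 ran from 17.3 to 25.1% on the low diet and from 28.9 to 36.0% on the high diet, without overlap. The mean difference was 14.5 ± 2.60 points. No gene of the 37-gene list of fatty acid uptake, droplets, oxidation and ketogenesis had a block, although 22 had a listed site.

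In the glucose and insulin list the 2 blocks went opposite ways. They were at 2 of its 24 genes with a listed site (8.33%, against 1.59% over all genes). Txnip encodes a thioredoxin-binding protein induced by glucose, and its 8 sites on chromosome 3 at 96363029 to 96364769, 7 of them in exons, were all lower. They ran from 51.6 to 66.6% on the low diet and from 42.9 to 61.0% on the high diet, so the ranges overlapped, and the mean difference was -10.1 ± 1.74 points. Grb10, an imprinted gene of an adaptor that restrains the insulin receptor, had 6 sites upstream of its start on chromosome 11 at 11938057 to 11938454, 4 of them in the promoter. All 6 were higher, with means of 19.6% and 30.7%. It was also the 1 block of the 38 imprinted genes, 23 of which had a listed site.

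The liver transcription factor list had 7 blocks, at 5 of its 20 genes with a listed site (25%, against 1.59% over all genes). Runx1 and Etv6, described below, had 2 of the 7 each, and the rest were at Foxa3, Onecut1 and Gata4. Of the list's 144 listed sites 42 (29.2%, against 4.43% of all listed sites) were in these 7 blocks, 27 higher and 15 lower. The list is broad and includes Runx1, a regulator of blood cell formation. It was not chosen independently of these data, so these shares are not tests of enrichment. Onecut1, a hepatocyte regulator, had 6 intronic sites higher on chromosome 9 at 74716189 to 74716597, with site averages of 4.19 to 14.2% and 11.2 to 25.9%. Foxa3, a forkhead factor of hepatocytes, had 5 sites higher at and after its promoter, with means of 12.6% and 20.3%. Both blocks were low in both diets.

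Gata4, a zinc finger factor of the developing heart and liver, had 8 sites lower on chromosome 14 at 63860607 to 63862326, in an intron and shore. In the authors' deposited table the 8 sites averaged 69.8%, 70.0%, 73.2%, 72.5%, 67.8%, 75.7%, 62.2% and 77.7% on the low diet. In high diet they averaged 60.1%, 59.2%, 59.5%, 60.7%, 54.5%, 56.6%, 51.4% and 57.0%. The diets did not overlap, and the mean difference was -15.4 ± 3.79 points.

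Runx1, a regulator of blood cell formation, had a block in each direction, 125901 bp apart. On chromosome 16 at 92699442 to 92699887, in a shore, 5 of 5 sites were higher, with means of 10.5% and 20.2%. At 92825788 to 92825925, in a promoter of the gene, 6 of 6 sites were lower, with means of 79.0% and 68.2%. The distances listed for the 2 blocks refer to different starts. Etv6, an ETS family repressor, had 2 intronic blocks 10670 bp apart, both at least 125156 bp after the start: 5 of 5 sites were higher in the one (27.5% and 41.4%) and 6 of 7 in the other (28.8% and 40.6%).

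**Figure D4:**
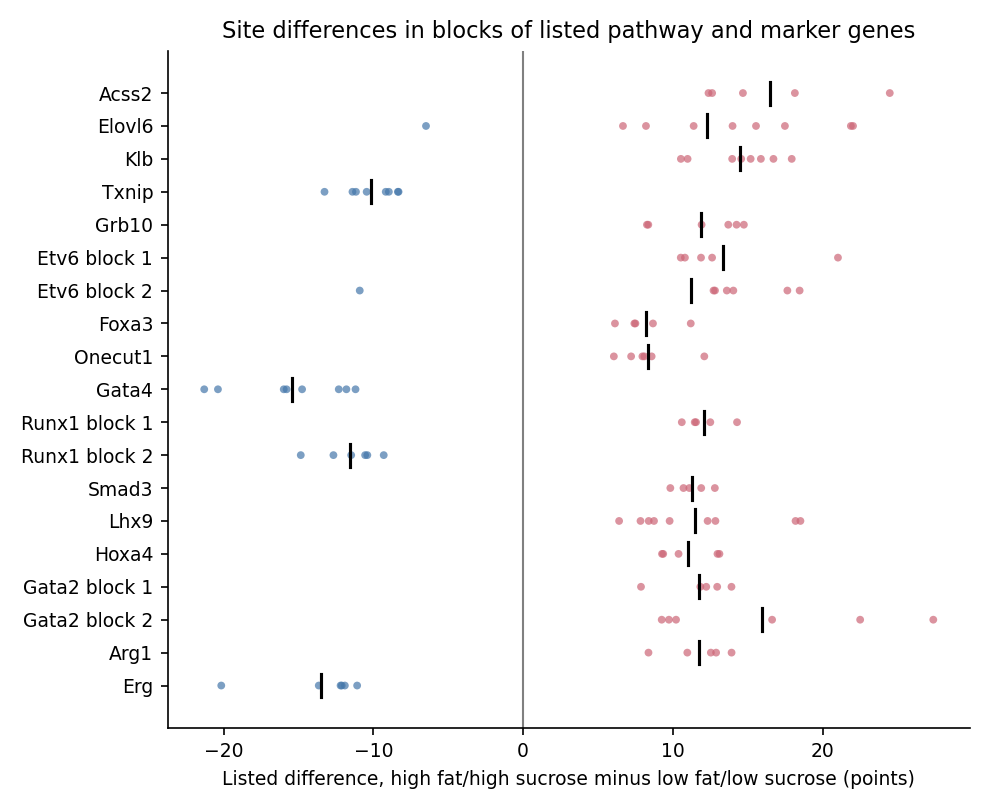
Listed difference of every site (x axis, percentage points, high diet minus low diet) in the 19 blocks whose gene is in a pathway or marker list (rows), with a black bar at the block mean, red points for rises and blue for falls. The Txnip, Gata4, second Runx1 and Erg blocks lie wholly below 0, and Elovl6 and the second Etv6 block have 1 site each on the other side of 0.

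Over the list of 114 developmental regulators, 224 of 288 listed sites were higher, where 57.7% of all listed sites on chromosomes 1 to 19 were. Other lists leaned the same way, with 95 of 107 sites higher for fatty acid and triglyceride synthesis and 65 of 85 for the cholesterol list. The liver transcription factor list (81 of 144) and the inflammation list (58 of 109) lay nearer to the share over all sites. The developmental list had 4 blocks, at 3 of its 89 genes with a listed site (3.37%, against 1.59% over all genes). Of all 170 blocks 67.6% were higher at every site, and so were these 4 blocks. Gata2, a factor of blood and endothelial precursors, had 2 of them on either side of its start, 4369 bp apart: an island block upstream, at -3741 to -2932 bp, (8.40% and 19.7%, 5 sites) and an intronic shore block downstream (17.2% and 32.1%, 6 sites). The LIM homeobox gene Lhx9 had 9 sites after its start, 8 in a shore, that rose from 11.1% to 22.0%. Hoxa4 had 5 shore sites upstream of its listed start that rose from 29.4% to 40.5%. In the inflammation list of 33 genes, 24 with a listed site, Smad3, the TGF-beta signal transducer, had the 1 block, with 5 intronic sites within 35 bp that rose from 58.6% to 68.6%.

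Cell type markers had 2 blocks. Arg1, the urea cycle arginase of hepatocytes, had 5 sites higher at -21182 to -20870 bp, upstream of its start (20.8% and 31.1%), the 1 block among 18 hepatocyte markers (10 with a listed site). Erg, an ETS factor of endothelial cells, had 6 intronic sites lower (71.0% and 59.2%), the 1 block among 15 endothelial markers (13 with a listed site). The lists of macrophage, lymphocyte, stellate cell and fibroblast, cholangiocyte, neutrophil and adipocyte markers had 0 blocks, with 0 to 15 listed sites each, too few to read anything from. Whether the mix of cells had a part in the block differences was not tested.

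The 24 mixed blocks were longer than the rest, with a median span of 1176 bp, against 361 bp for higher and 312 bp for lower blocks. In 16 of them 1 site alone went against the others, and 8 had at least 2 sites each way. The sign changed once along 18 of them. Dusp1, a phosphatase gene that switches off MAP kinases, had 5 sites lower and 3 higher on chromosome 17 at 26642095 to 26643482. The 5 lower sites stood at 58.9 to 79.6% on the low diet, whereas the 3 higher sites stood at 5.86%, 2.53% and 1.10% in the authors' deposited table.

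Opposite changes within a short stretch also appeared at other genes. A block whose sites are listed under both Vtn, the gene of the plasma protein vitronectin made by liver, and Sebox had 4 sites higher and 3 lower, with means of 21.8% and 22.3%. Dnajc11, a mitochondrial chaperone gene, gave its name to a distal block with 4 sites higher followed by 2 lower. In Myo10, an unconventional myosin gene, 2 sites fell by 10.2 points each and the 3 beyond them rose. Gpx5 named a block with 2 sites lower and 3 higher, Pcdha12 a block with 3 each way, and an unnamed block on chromosome 13 at 37758377 to 37758814 had 2 lower and 3 higher. Dleu2, a noncoding RNA gene, had 2 sites higher and 3 lower in a shore, with site levels from 15.3 to 97.9% on the low diet. The mean difference of such a block can lie near 0: it was -0.41 points at Gpx5, -0.55 at Pcdha12 and 0.023 at Dleu2, values that depend on the summary used.

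The other 111 blocks repeat these patterns in ranges. Of the higher ones, 15 had most of their sites in promoters (Adck3, Rusc1, Vps45, Prhoxnb, Dgki, Atp6v0e2, Zfp819, 4930433N12Rik, Fam184a, Supv3l1, Gltpd2, Tmem232, Pcdhga11, A1cf and 1 without a symbol), with mean rises of 7.56 to 16.4 points. Another 20 were in islands or shores (Etnk2, Nr4a2, Hspa12b, Shisa3, Art3, Fbxo21, Polr2i, Insl3, Trim17, Aloxe3, Baiap2, Abt1, Foxf2, Gfra2, Kcnj4, Ccdc94, Pcdhgb6, Peo1 and 2 without a symbol), with rises of 8.16 to 17.6 points. A further 8 were in exons (Hes6, Aars, BC030307, Polg2, Scaf11, Pcdhgc5 and 2 without a symbol), at 8.22 to 17.5 points. Introns held 19 (Edem3, Qsox1, Rbms1, Catsperg1, Mtus1, Ccr4, Mypn, Grb7, Hdac5, Akap6, Abcc4, Lrrk2, Zeb1, Xpnpep1, Tcf7l2 and 4 without a symbol), at 7.75 to 16.8 points. Outside these features there were 18 (among them Cers6, Gzf1, Aldh1a3, Gcm1, Elovl4, Enpp3, Phlda1, Il5, Dus1l, Cxcl14, AI836003, 4932438H23Rik, Gm10510 and 4 without a symbol), with rises of up to 16.1 points. The clustered protocadherins are similar in sequence, and the placement of reads among them, and for 4930433N12Rik, was not tested.

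Of the lower ones, 9 were in introns (4930594C11Rik, Prkcq, Slc25a12, Plac8, Arpp21, Anxa11, Rbm20 and 2 without a symbol), with mean differences of -12.6 to -8.11 points and levels of 67.1 to 94.9% on the low diet. Promoters held 4 (Wipf1, Tmc6, Atxn7l1 and Ehbp1l1), at -13.0 to -10.9 points, and 3 lay outside these features (Myzap, Rbm24 and Gramd4), at -11.9 to -11.3 points. The last was the island block on chromosome 14 given above. The 14 other mixed blocks were at Smad4, Mir101b, Olig3, Arhgdia, Hspa1a, Tubb5, Rcsd1, Gnb4, Tjp3 and 1700030C10Rik, with 4 lacking a symbol, and their mean differences ran from -8.53 to 15.7 points. Reads of 1700030C10Rik, too, may come from similar copies.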

How the data were processed

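Liver DNA of 13 mice was analysed by targeted bisulfite sequencing. Per the submitters' processing notes the tools were CASAVA 1.8, Trim Galore, Bismark and methylKit, with build mm9; the sources used here do not give their settings. Per the file headers, the authors' deposited table gives for each site a p-value, a q-value, the average percent methylation of each diet, a difference in percentage points and annotation flags. The listed difference departs from that of the averages by a median of 0.994 points in block sites, and either gave every block the same direction class.

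Sites were sorted by chromosome and position with pandas 2.3.3 under Python 3.11.15, joined at gaps of at most 1000 bp, and groups of 5 or more were kept. Means and SDs are over sites (numpy 2.4.6), and figures used matplotlib 3.10.9. No test was run, as the authors' contrast chose the sites. The joining was tested on simulated data: 194 of 194 planted blocks were recovered.

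Members and lists were chosen with earlier results of these data known. Blocks named with values were those with the most sites (10), the largest rises (10) and falls (10), the most promoter sites (10), 8 mixed blocks with at least 2 sites each way, and those at genes of 16 lists, 59 in all. A block's place is the feature flagged at most of its sites, in the order promoter, island or shore, exon, intron. RefSeq GRCm38.p6 served for names and promoters only: 142 of 142 block symbols matched, 9 under a changed name. Listed distances placed 283 of 467 sites in promoter windows on a CG (60.6%), against 5.14 to 8.78% at offsets of 1 to 5 bp. For this placement, positive distances were shortened by 2 bp. That convention was inferred from the same share, so the share is not an independent check of it. Alternatives for gap, minimum size, difference and q are in the closing section. The name of 1 block is not reported here.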

Additional observations from a re-analysis of the deposited data

How the results depend on the processing

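Blocks numbered 395 with 4 or more sites, 30 with 8 or more, 85 from differences of 10 points or more and 20 at q under 0.001, against 170, with 1949, 276, 518 and 122 sites, against 1049, as these limits keep more or fewer sites. The share of blocks with every site higher, 67.6%, was 75% at q under 0.001. Island shares were 11.0% with 4 or more sites, 25.4% with 8 or more and 18.9% at q under 0.001. Shore shares were 23.4% with gaps of 500 bp, 23.1% (4 or more), 22.8% (8 or more), 22.0% (10 points) and 21.3% (q). Promoter shares were 20.01% (4 or more), 18.3% (10 points) and 19.7% (q), exon shares 19.5% (4 or more), 27.9% (8 or more) and 19.7% (q), and intron shares 42.8% (8 or more), 46.1% (10 points) and 46.7% (q). The cause of these shifts in shares was not tested. The other 64 summary values stayed within the limits used here to call a shift (a ratio of 1.5 for counts and medians), but some moved by several points. Gaps of 500 and 2000 bp gave 139 and 211 blocks. With differences of 10 points or more, 24.7% of blocks were lower at every site, and the low diet median was 37.3%. At q under 0.001 the high diet median was 51.4%. By the median over sites, the mixed blocks at Gpx5 (8.79 points, mean -0.41) and Dleu2 (-8.96, mean 0.023) turned sign, because the median takes the side with more sites. The median was also larger than the mean at Vtn and Sebox (11.3 and 1.496), Dnajc11 (9.25 and 3.58), Myo10 (12.6 and 4.77), the unnamed chromosome 13 block (12.3 and 5.15) and Dusp1 (-14.4 and -8.05). By the difference of averages Pcdha12 gave -1.16, Gpx5 -0.62, Dleu2 0.095 and the Vtn and Sebox block 0.52. Counting positions 1 bp apart as 1 site changed nothing. Leaving out each mouse and a replicate block were not run, as the table gives averages per diet. No paired analysis was possible because the labels give the mice of the 2 diets no shared replicate number. Depth limits each average by an unknown amount.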

Other observations

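Some blocks stood near each other. On chromosome 7 a run of 4 blocks between 30928387 and 31375671 was higher throughout: an unnamed shore block (12.7% and 23.1%), Polr2i, an RNA polymerase II subunit gene (20.5% and 30.2%), Arhgap33os and Kmt2b. In the protocadherin gamma cluster on chromosome 18 the blocks at Pcdhgb6 (27.1% and 44.4%), Pcdhga11 (14.996% and 23.6%) and Pcdhgc5 (67.0% and 78.7%) were all higher, and the placement of reads among these similar genes was not tested. On chromosome 3 the Txnip block, lower, lay 219647 bp from an unnamed block that was higher (38.3% and 54.5%). The block named for Enpp3, higher from 48.9% to 64.0%, lay 194229 bp from the Arg1 block. These blocks were singled out after their values were seen.

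The 26 blocks without a symbol had medians of 34.6% and 44.6% in the 2 diets, with 17 higher, 4 lower and 5 mixed. Blocks in which every site was over 10000 bp from the listed start were higher in 39, lower in 17 and mixed in 9 of 65, with medians of 35.3% and 48.8%.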
